A study of Mus musculus with 14 samples.

Results

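The 10 genes described here encode the subunits of both condensin complexes (Smc2, Smc4, Ncapd2, Ncapg, Ncaph, Ncapd3, Ncapg2 and Ncaph2), topoisomerase II alpha (Top2a) and Ki-67 (Mki67). They are the rows, among 49585 in the deposited table, whose Ensembl identifier without its version belongs to these gene names in GENCODE release M21, and each of the 10 names had a row. RNA was sequenced from C2C12 cells, a mouse myoblast line, in 14 libraries. Of these, 4 came from activated cells with a short hairpin RNA against FoxM1 (shFoxM1), 3 from activated cells with a control hairpin (shControl), 4 from quiescent shFoxM1 cells and 3 from quiescent shControl cells. All groups were kept in DMEM with 10% fetal bovine serum. The quiescent state was modelled by holding detached cells in suspension, in medium thickened with 1.5% methylcellulose and with 20% serum, and the labels do not say how the activated cells were brought out of it. The design text speaks of triplicates, whereas the titles give each shFoxM1 group a further library, and all 14 were used. Nor do the labels give the number of hairpins or clones, or say whether the libraries of a group came from separate cultures. The p-values below therefore set differences between groups against the spread of these libraries only, and that spread may be technical. Levels are in FPKM, fragments scaled to transcript length and to the number mapped in the library, so genes can be set beside each other. Differences are on the log2(FPKM + 1) scale, which understates the change of low genes, and are given ± SE, while mean levels are given ± SD, with n = 4 for each shFoxM1 group and n = 3 for each shControl group.

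Condensins are ring-shaped ATPases that fold chromatin into loops and compact the chromosomes as a cell enters mitosis. Both complexes are built on the Smc2 and Smc4 ATPases. Condensin I adds the kleisin Ncaph and the HEAT-repeat subunits Ncapd2 and Ncapg, and it reaches the chromosomes once the nuclear envelope has broken down. Condensin II adds the kleisin Ncaph2 and the HEAT-repeat subunits Ncapd3 and Ncapg2, and is nuclear in interphase as well. Topoisomerase II alpha untangles the sister DNA molecules by passing a duplex through a cut in another. Ki-67 coats the surface of mitotic chromosomes and is the protein most used to mark cycling cells. FoxM1 is a forkhead transcription factor of dividing cells that is known to act on genes expressed late in the cell cycle.

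Foxm1 itself was at 14.47, 14.74, 27.58 and 11.21 FPKM in activated shFoxM1 libraries 1 to 4, against 37.06, 35.34 and 34.93 FPKM in the activated shControl libraries. These groups did not overlap, and the ratio of the means was 0.475 (exact two-sided permutation p = 0.0571, the smallest that 4 against 3 libraries allow, and limma adjusted p = 0.624). In quiescent cells it was at 9.95, 6.61, 8.0 and 15.56 FPKM with shFoxM1, against 23.87, 12.76 and 10.01 FPKM with shControl, and the groups overlapped (exact p = 0.229). The estimated depth was 27400000 to 36200000 reads per library, and a member rested on an estimated 240 reads (Ncapg2 in quiescent shControl library 3) to 22621 reads (Top2a in activated shFoxM1 library 1). All 5 myoblast markers chosen for this check (Myod1, Myf5, Des, Cdh15 and Vcam1) were above 1 FPKM in every library. Their sums were 99.5 to 188, 145 to 274, 197 to 347 and 230 to 320 FPKM in activated shFoxM1, activated shControl, quiescent shFoxM1 and quiescent shControl cells. Their levels were not equal between states. Myod1 (-1.86 with shFoxM1 and -1.38 with shControl) and Cdh15 (-1.84 and -1.79) were called lower in activated cells for both hairpins. Vcam1 was called lower with shFoxM1 only (-0.73), and Myf5 and Des were not called. Of all genes tested, 12.3% and 16.5% were called lower. Of 8 markers of other cell types, 7 stayed below 1 FPKM and Epcam was at 0 in all libraries. The exception was Cd68, a macrophage marker that other cells also express, at 6.2 ± 3.08 and 9.66 ± 4.93 FPKM in activated shFoxM1 and shControl cells, against 1.77 ± 0.878 and 1.38 ± 0.298 FPKM in the quiescent groups.

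By level, Top2a stood first in activated cells, at 108 ± 35.6 FPKM with shFoxM1 and 97.2 ± 22.4 FPKM with shControl. Ncaph2 stood first in quiescent cells, at 44.2 ± 10.4 and 48.2 ± 8.19 FPKM. Below these, all 4 groups had the same order of group means, from Smc4 through Mki67, Ncapd2, Ncaph and Smc2 to Ncapg. The lowest places went to Ncapg2 and Ncapd3, with Ncapd3 lowest in both activated groups and in quiescent shControl cells and Ncapg2 lowest in quiescent shFoxM1 cells. The ranges of neighbours in this order overlapped within each group, apart from Ncaph2 over Smc4 and Ncapd2 over Ncaph in activated shControl cells. Within single libraries some neighbours still kept their order, as Ncapd2 did above Ncaph in all 14. Others did not, such as Ncaph over Smc2, which held in 1 of 4 quiescent shFoxM1 libraries. The members of condensin II thus held both the highest condensin level (Ncaph2) and the lowest levels (Ncapd3 and Ncapg2).

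**Figure D1:**
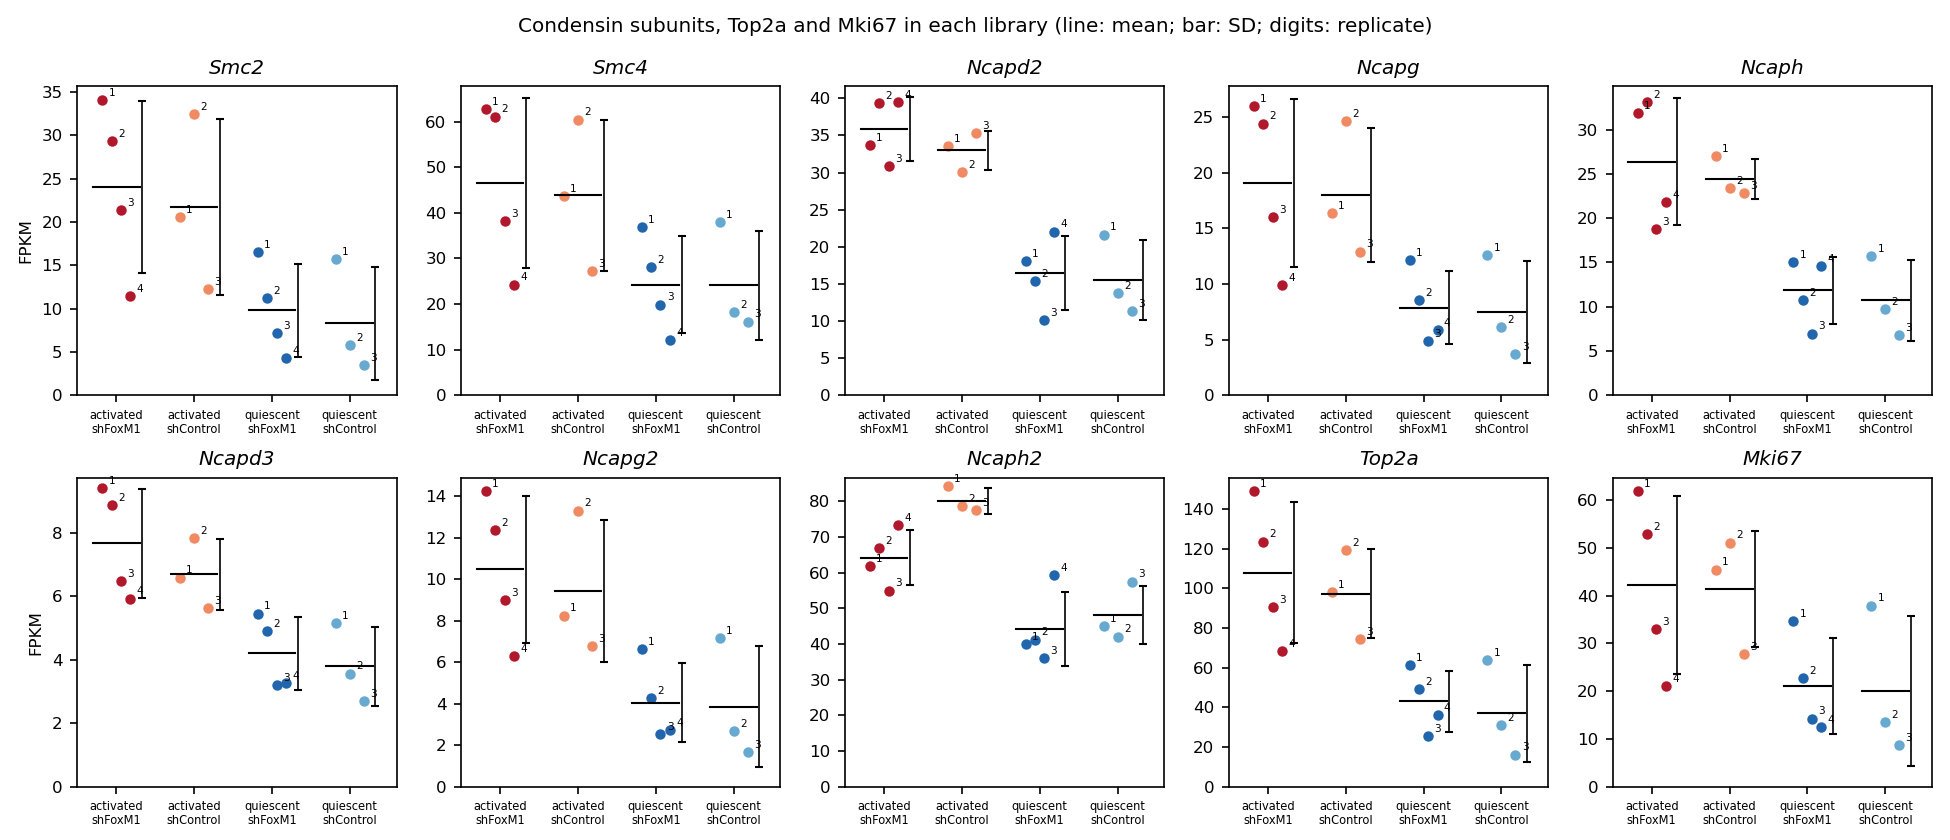
FPKM of each gene in every library on a linear axis that starts at 0, with 4 activated shFoxM1, 3 activated shControl, 4 quiescent shFoxM1 and 3 quiescent shControl libraries from left to right (line: group mean, bar: SD, digit: replicate number). Ncapd2, Ncaph, Ncapd3 and Top2a are higher in every activated library than in any quiescent library of the same hairpin, while Smc2, Smc4, Ncapg2 and Mki67 overlap for both hairpins.

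Since most members rose together on activation, their promoters were searched for motifs of cell cycle genes. RefSeq windows (GRCm38.p6) from 250 bases before to 50 bases after the annotated start were at hand for 9 of the 10 members, with 2 windows for Ncapd3. Searched on both strands were TTTGAA, the core of the cell cycle genes homology region (CHR) through which late cell cycle genes are known to be controlled, CCAAT, the box bound by NF-Y, and the forkhead motif TAAACA. To these came 4 motifs bound by E2F factors, which were TTTGGCG, its variant TTTCCCG, the further variant TTTCGCG and, as the last of the set, TTTGCCG. Overlapping matches were allowed, and no match of one motif overlapped a match of another in these windows. A member was counted if any of its windows had a match, whereas the shares given beside the counts are per window. TTTGAA was found for 7 of 9 members, against 17.9% of all 32851 windows. For Ncapd3 this match lay only in the second window, which begins at 27060166, and not in the one at the annotated start of the gene. CCAAT was found for 5 of 9 members against 37.4% of windows, an E2F motif for 4 of 9 against 6.7%, and the forkhead motif for 1 of 9 (Ncapd3) against 13.4%. A letter match describes these windows and is not a binding site. Stretches from 180 to 11 bases before the start follow for Top2a and Mki67, for the pair of members with the closest pattern over libraries (Ncapg and Ncapg2) and for a member with no match and a small change (Ncaph2), in lower case with every match of the CHR core and of the CCAAT box, on either strand, in capitals.
Top2a (chr11:99024200-99024369, minus strand): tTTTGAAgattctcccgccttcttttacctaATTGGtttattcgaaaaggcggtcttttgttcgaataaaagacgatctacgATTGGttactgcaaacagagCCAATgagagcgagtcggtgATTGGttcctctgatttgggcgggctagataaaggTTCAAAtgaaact
Mki67 (chr7:135716390-135716559, minus strand): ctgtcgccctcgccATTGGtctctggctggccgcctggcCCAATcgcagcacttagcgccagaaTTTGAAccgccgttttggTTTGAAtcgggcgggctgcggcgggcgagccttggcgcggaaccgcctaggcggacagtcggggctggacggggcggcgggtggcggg
Ncapg (chr5:45669745-45669914, plus strand): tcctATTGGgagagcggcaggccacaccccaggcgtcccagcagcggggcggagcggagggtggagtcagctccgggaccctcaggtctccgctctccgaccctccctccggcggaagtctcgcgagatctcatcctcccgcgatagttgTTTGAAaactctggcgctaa
Ncapg2 (chr12:116405256-116405425, plus strand): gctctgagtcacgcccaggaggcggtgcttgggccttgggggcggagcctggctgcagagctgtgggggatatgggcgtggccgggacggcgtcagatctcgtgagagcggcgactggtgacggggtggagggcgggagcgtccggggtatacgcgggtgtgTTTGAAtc
Ncaph2 (chr15:89355539-89355708, plus strand): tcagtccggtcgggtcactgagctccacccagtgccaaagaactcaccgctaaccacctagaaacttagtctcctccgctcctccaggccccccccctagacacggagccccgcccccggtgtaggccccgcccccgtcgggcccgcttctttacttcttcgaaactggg
The stretch of Top2a holds 2 TTTGAA and 4 CCAAT matches, and that of Mki67 holds 2 of each. Ncapg has 1 of each, with its TTTGAA beginning 30 bases before the start. Its condensin II counterpart Ncapg2 has 1 TTTGAA, which begins 18 bases before the start, and no CCAAT. Ncaph2 had none of the motifs in its whole window. Ncaph, which is not printed, had no TTTGAA or CCAAT and 1 E2F match in its window. It was called higher on activation for both hairpins, by 1.11 with shFoxM1 and 1.18 with shControl. Whether the motifs go with the size of the change was not tested.

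On activation, 8 of the 10 genes rose in shFoxM1 cells and 0 fell, where 18.3% of the 12432 genes tested were called higher, 12.3% lower and 30.7% in all (limma, Benjamini-Hochberg adjusted p below 0.05). In shControl cells 7 of 10 rose and 0 fell, where 11.7% of the genes tested were called higher, 16.5% lower and 28.3% in all. The genes that rose for both hairpins were Ncapd2, Ncapg, Ncaph, Ncapd3, Ncapg2, Ncaph2 and Top2a, and Smc2 rose with shFoxM1. Smc4 and Mki67 did not pass for either hairpin in this fit. The median difference of the members was 1.11 in shFoxM1 and 1.20 in shControl cells, against 0.03 and -0.11 over all genes tested. Without a filter on low values the counts were 5 and 4 of 10. With libraries rescaled to an equal sum over protein-coding genes, which moved the median of all genes to -0.20 and -0.36, they were 4 and 3. Ncapd2, Ncaph and Top2a passed for both hairpins under both of these settings. The share of all genes called under them was not worked out.

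Single libraries moved these counts by over 1.5 times, and the share of all genes called was not worked out for these fits. In shFoxM1 cells the count was 2 without quiescent shFoxM1 replicate 3, 4 without activated shFoxM1 replicate 1 and 5 without activated shFoxM1 replicate 2. In shControl cells it was 2 without quiescent shControl replicate 3, 3 without quiescent shControl replicate 2, 3 without activated shControl replicate 2 and 4 without activated shControl replicate 1. Ncapd2 was called in all of these fits, with differences of 0.92 to 1.27 in shFoxM1 and 0.89 to 1.33 in shControl cells. No difference on activation changed its sign for any of the 10 genes when a library was left out.

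The SMC core came with a wide spread between libraries. Smc2 (ENSMUSG00000028312.19, GRCm38 chromosome 4, 52439243 to 52488260, plus strand) was at 34.09, 29.38, 21.34 and 11.48 FPKM in activated shFoxM1 libraries 1 to 4, against 16.57, 11.25, 7.15 and 4.26 FPKM in the quiescent ones. With shControl it was at 20.59, 32.47 and 12.25 FPKM in activated cells, against 15.71, 5.77 and 3.46 FPKM in quiescent cells. In both cases 1 activated library lay within the quiescent range. The difference was 1.25 ± 0.45 with shFoxM1 (limma adjusted p = 0.0479, exact permutation p = 0.0571) and 1.42 ± 0.52 with shControl (adjusted p = 0.0551, exact p = 0.2). Leaving out 1 of 8 libraries ended the call in shFoxM1 cells (adjusted p = 0.0592 to 0.131), namely activated shFoxM1 replicates 1, 2 and 3, quiescent shFoxM1 replicates 2, 3 and 4, activated shControl replicate 1 and quiescent shControl replicate 2. In shControl cells the gene passed without activated shControl replicate 3 (0.0348), quiescent shControl replicate 1 (0.0148), quiescent shFoxM1 replicate 1 (0.0477), quiescent shFoxM1 replicate 4 (0.0396) or activated shFoxM1 replicate 4 (0.0426).

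Smc4 (ENSMUSG00000034349.14, chromosome 3, 69004738 to 69034623, plus strand), the other ATPase of the core and host of the microRNA genes Mir15b and Mir16-2, had 24.2 to 62.6 FPKM in activated against 12.1 to 36.9 FPKM in quiescent shFoxM1 cells. The range was 27.3 to 60.4 FPKM in activated against 16.1 to 37.9 FPKM in quiescent shControl cells, so that the groups overlapped for both hairpins. The differences of 0.92 ± 0.38 and 0.86 ± 0.44 did not pass (limma adjusted p = 0.0765 and 0.147). With shFoxM1 the gene passed without activated shFoxM1 replicate 4 (0.0259) or quiescent shFoxM1 replicate 1 (0.0422).

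All 3 subunits particular to condensin I rose for both hairpins. Ncapd2 (ENSMUSG00000038252.13, chromosome 6, 125168007 to 125191701, minus strand), a HEAT-repeat subunit, had 33.68, 39.35, 30.85 and 39.54 FPKM in activated shFoxM1 cells, against 18.11, 15.41, 10.15 and 22.04 FPKM in quiescent ones. With shControl its values were 33.52, 30.09 and 35.30 FPKM, against 21.65, 13.72 and 11.35 FPKM. Every activated library lay above every quiescent one, and the activated levels varied little, with an SD of 4.3 around 35.9 FPKM and of 2.65 around 33 FPKM. The difference was 1.12 ± 0.22 with shFoxM1 (limma adjusted p = 0.00176, exact permutation p = 0.0286, the smallest that 4 against 4 libraries allow) and 1.08 ± 0.25 with shControl (adjusted p = 0.00605, exact p = 0.1, the smallest that 3 against 3 allow). The small RNA gene Scarna10 and the model Gm28967 lie within Ncapd2 on the same strand, and whether their reads were counted with it is not known.

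Ncapg (ENSMUSG00000015880.13, chromosome 5, 45669919 to 45700546, plus strand), the second HEAT-repeat subunit of condensin I, was at 25.99, 24.42, 16.01 and 9.88 FPKM in activated and 12.17, 8.52, 4.84 and 5.87 FPKM in quiescent shFoxM1 cells. In shControl cells it had 16.39, 24.68 and 12.91 FPKM when activated and 12.56, 6.15 and 3.66 FPKM when quiescent. The shControl groups stayed apart, by a small margin, and activated shFoxM1 library 4 fell within the quiescent shFoxM1 range. The difference was 1.16 ± 0.36 (limma adjusted p = 0.0237) and 1.26 ± 0.41 (0.0346). The shFoxM1 call was lost without activated replicates 1 or 2 or quiescent replicate 3 (adjusted p = 0.073 to 0.08), and the shControl call without activated replicates 1 or 2 or quiescent replicates 2 or 3 (0.068 to 0.141).

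Ncaph (ENSMUSG00000034906.15, chromosome 2, 127103809 to 127133954, minus strand), the kleisin that closes the condensin I ring, had 31.85, 33.09, 18.71 and 21.77 FPKM in activated against 15.07, 10.75, 6.95 and 14.60 FPKM in quiescent shFoxM1 cells. Its shControl values were 26.99, 23.42 and 22.83 FPKM in activated cells and 15.73, 9.69 and 6.75 FPKM in quiescent cells. No activated library reached down into the quiescent range for either hairpin. The difference was 1.11 ± 0.26 (limma adjusted p = 0.0062, exact permutation p = 0.0286) and 1.18 ± 0.30 (0.0109, exact p = 0.1). The shControl call was lost without quiescent shControl replicate 3 (adjusted p = 0.0504).

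All 3 subunits particular to condensin II rose as well. Ncapd3 (ENSMUSG00000035024.16, chromosome 9, 27030175 to 27095315, plus strand), a HEAT-repeat subunit, had 5.92 to 9.39 FPKM in activated and 3.19 to 5.45 FPKM in quiescent shFoxM1 cells. It had 5.63 to 7.83 FPKM in activated and 2.69 to 5.14 FPKM in quiescent shControl cells. The ranges did not meet, and the differences were 0.74 ± 0.21 (limma adjusted p = 0.0143) and 0.70 ± 0.24 (0.0395). The shFoxM1 call was lost without activated replicate 1 (0.0504) or quiescent replicate 3 (0.0507), and the shControl call without activated replicates 1 or 2 or quiescent replicates 2 or 3 (0.0828 to 0.145).

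Ncapg2 (ENSMUSG00000042029.6, chromosome 12, 116405402 to 116463731, plus strand), the other HEAT-repeat subunit of condensin II, had 6.29 to 14.2 FPKM in activated and 2.55 to 6.65 FPKM in quiescent shFoxM1 cells, and 6.77 to 13.3 FPKM in activated and 1.68 to 7.16 FPKM in quiescent shControl cells. In each case 1 activated library lay within the quiescent range. The differences, 1.20 ± 0.35 (limma adjusted p = 0.0175) and 1.22 ± 0.40 (0.034), were of the size seen for Ncapg. The shFoxM1 call was lost without activated replicates 1 or 2 or quiescent replicate 3 (0.0518 to 0.0591), and the shControl call without activated replicates 1 or 2 or quiescent replicates 2 or 3 (0.0626 to 0.139).

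Ncaph2 (ENSMUSG00000008690.15, chromosome 15, 89355719 to 89372826, plus strand), the kleisin of condensin II, was at 61.76, 66.83, 54.98 and 73.41 FPKM in activated shFoxM1 cells, against 40.05, 41.24, 36.01 and 59.42 FPKM in quiescent ones. In shControl cells it was at 84.17, 78.56 and 77.65 FPKM, against 44.98, 42.08 and 57.49 FPKM. The shControl groups were well apart, whereas quiescent shFoxM1 library 4 lay above activated shFoxM1 library 3. Its difference was 0.55 ± 0.16 in shFoxM1 cells (limma adjusted p = 0.0171) and 0.73 ± 0.18 in shControl cells (0.00919). Among all genes tested it had rank 1884 from the top in shFoxM1 and rank 1004 in shControl cells. Leaving out quiescent shFoxM1 replicate 3 (0.0608) or quiescent shControl replicate 2 (0.0505) ended the call for the hairpin concerned. Sco2 and Tymp overlap Ncaph2 on the opposite strand, and the use of strand in counting is not given in the sources used here, so their reads cannot be told apart where they overlap. The same holds for Lcorl at Ncapg, Gm45240 at Mki67, Tmc4-ps at Smc2 and Gm26394 at Top2a. The model Gm23451 overlaps Top2a on the same strand, and whether reads of Gm23451 were counted with Top2a is not known.

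Top2a (ENSMUSG00000020914.17, chromosome 11, 98992943 to 99024189, minus strand), the topoisomerase of dividing cells, was at 149.09, 123.64, 90.61 and 68.40 FPKM in activated and 61.32, 49.11, 25.68 and 36.27 FPKM in quiescent shFoxM1 cells. With shControl it was at 98.15, 119.23 and 74.36 FPKM in activated and 63.99, 31.02 and 16.23 FPKM in quiescent cells. No library of the activated state reached down to the quiescent range, although activated shFoxM1 library 4 and quiescent shFoxM1 library 1 came close. The difference was 1.31 ± 0.36 (limma adjusted p = 0.0137, exact permutation p = 0.0286, rank 228 of 12432) and 1.55 ± 0.42 (0.0138, exact p = 0.1, rank 144). The shFoxM1 call was lost without quiescent shFoxM1 replicate 3 (0.0501), and the shControl call without activated shControl replicate 2 (0.0579) or quiescent shControl replicate 3 (0.0643).

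Mki67 (ENSMUSG00000031004.8, chromosome 7, 135689784 to 135716361, minus strand) was at 61.83, 52.89, 32.99 and 21.04 FPKM in activated shFoxM1 cells, against 34.62, 22.79, 14.27 and 12.48 FPKM in quiescent ones. In activated shControl cells it had 45.43, 51.09 and 27.77 FPKM, against 37.90, 13.53 and 8.67 FPKM in quiescent shControl cells. The highest quiescent library of each hairpin lay above the lowest activated one. The differences of 0.97 ± 0.43 and 1.22 ± 0.49 did not pass (limma adjusted p = 0.102 and 0.0760), although the ratios of the means, 2.01 and 2.07, were near those of Ncapd2, 2.18 and 2.12. The first passed without activated shFoxM1 replicate 4 (0.0402), and the second without quiescent shControl replicate 1 (0.0126).

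Counted library by library, the groups did not overlap for 4 of the 10 genes in shFoxM1 cells (Ncapd2, Ncaph, Ncapd3 and Top2a) and for 6 in shControl cells (these and Ncapg and Ncaph2). All were higher in activated cells, which was so for 17.3% and 17.5% of the genes tested, while 10.5% and 26.6% were lower without overlap.

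**Figure D2:**
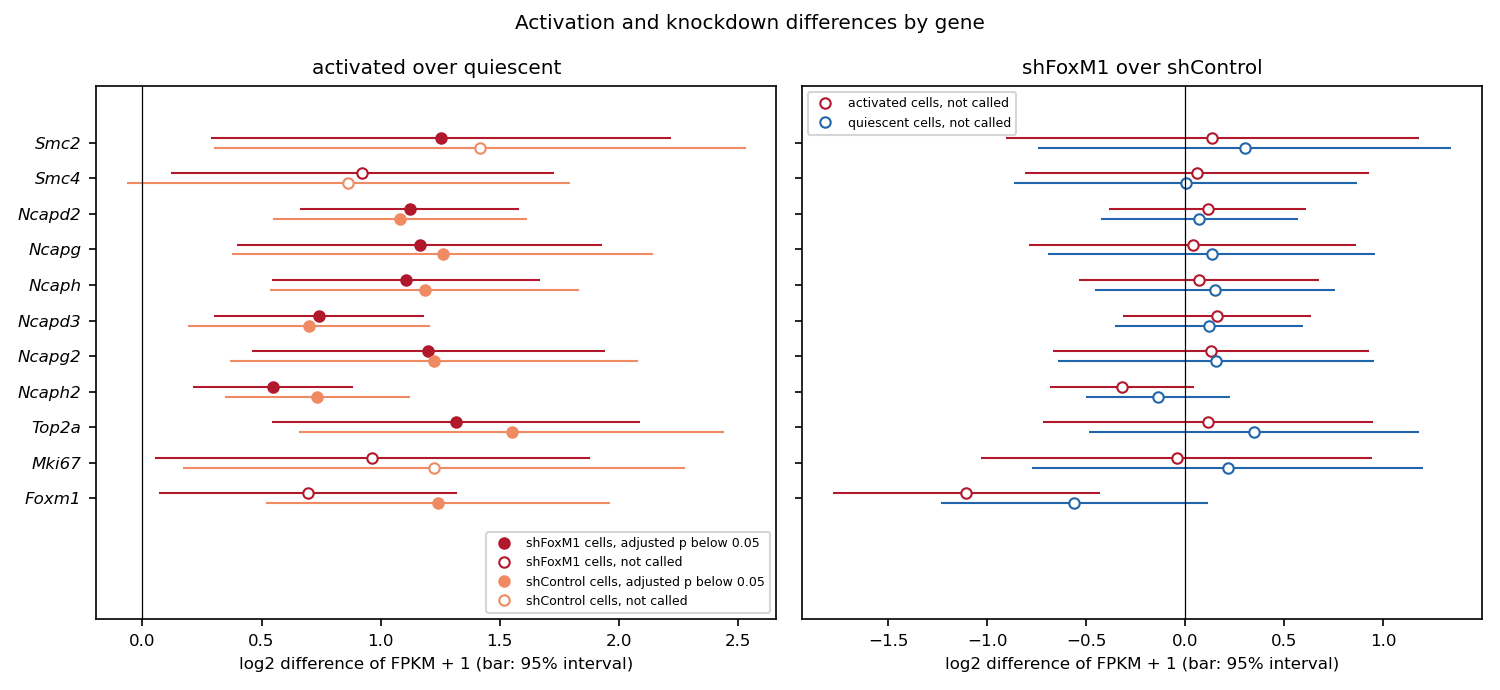
Differences on the log2(FPKM + 1) scale with 95% intervals from limma, on the left activated over quiescent cells and on the right shFoxM1 over shControl cells (filled points: adjusted p below 0.05). On activation every member lies above 0, with 8 called in shFoxM1 and 7 in shControl cells, while in the knockdown panel no member is called and all of their intervals include 0.

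The members differed in how much libraries of the same group scattered. The SD within groups on the log2 scale was 0.76 for Smc2, 0.72 for Mki67, 0.63 for Smc4, 0.60 for Top2a, 0.59 for Ncapg and 0.57 for Ncapg2, against a median of 0.27 over all genes tested. It was 0.42 for Ncaph, 0.33 for Ncapd2, 0.30 for Ncapd3 and 0.22 for Ncaph2. By the GC content of the longest transcript, Ncaph2 at 55.7% and Ncapd2 at 54.0% were among the less variable members, and Ncapg at 34.8%, Smc2 at 39.7% and Smc4 at 40.2% among the more variable ones. GC content did not order the members throughout, since Mki67 at 46.6% and Ncapd3 at 46.8% lay near opposite ends of the range of SDs. The GC content of the genes tested had its 25% quantile at 44.53% and its 75% quantile at 54.31%.

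In activated shFoxM1 library 4, Smc2 lay 0.90 below its group mean on the log2 scale, Mki67 0.86 below, Smc4 0.82 below and Ncapg 0.79 below, while Ncapd2 and Ncaph2 lay 0.15 and 0.20 above theirs. Quiescent shFoxM1 library 4 was alike, with Smc2 0.90 below and Ncapd2 and Ncaph2 each 0.45 above. In quiescent shControl library 1, Mki67 lay 1.14, Smc2 1.07 and Top2a 0.98 above their group means. Ncaph and Ncapd2 lay above theirs there as well, by 0.59 and 0.50, and Ncaph2 lay 0.08 below. Across all genes the second principal component, with 14.7% of the variance, followed GC content (Spearman rho = -0.705 over genes, which share the libraries). With each library corrected for its trend along GC content and length, all 10 genes were called on activation for both hairpins. The share of all genes called after this correction was not worked out. The difference of Mki67 was then 1.21 in shFoxM1 cells (limma adjusted p = 0.0273) and 1.62 in shControl cells (0.0157), and that of Smc4 was 1.02 (0.00972) and 0.97 (0.0311).

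**Figure D3:**
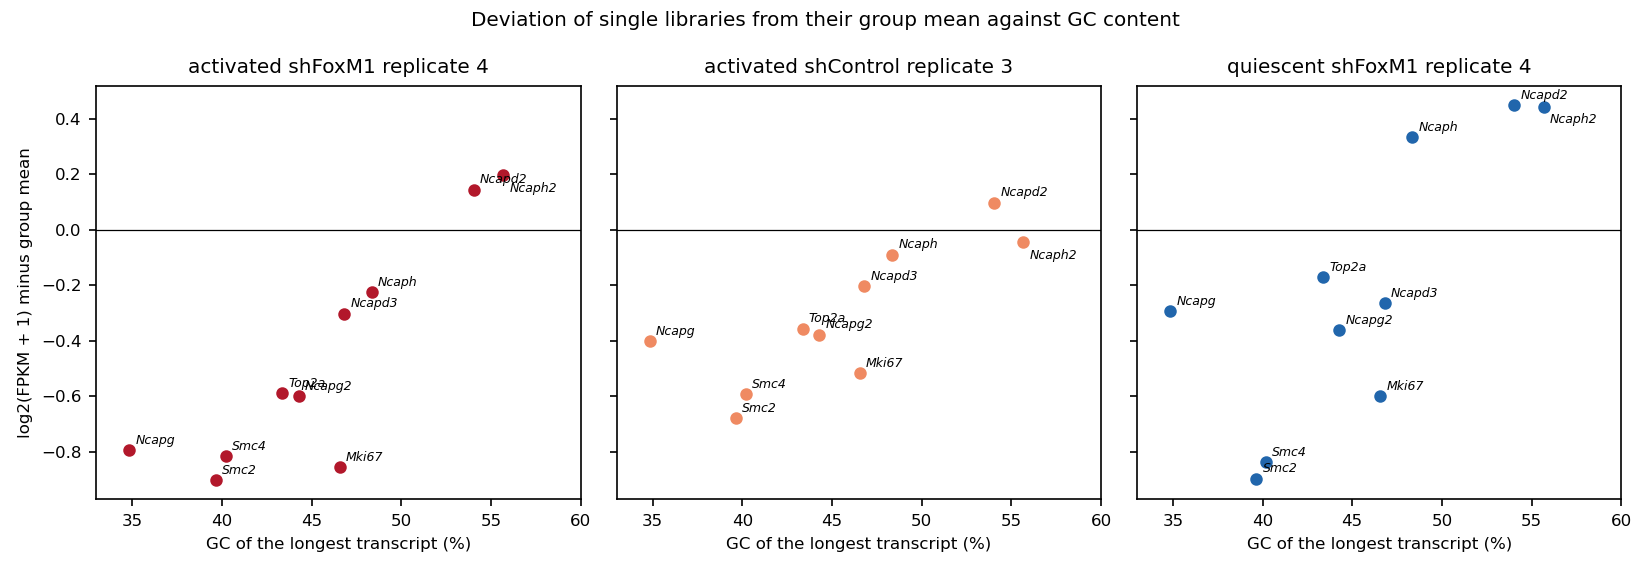
Deviation of each member from its group mean on the log2(FPKM + 1) scale (vertical axis) against the GC content of its longest transcript in percent (horizontal axis), for libraries named in each panel (points: the 10 genes). In activated and quiescent shFoxM1 library 4 the AT-rich Smc2, at -0.90 in both, lies far below the GC-rich Ncaph2, at 0.20 and 0.45.

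Ratios within a library set partner genes side by side, and no test was run on them. Smc4 over Smc2 was 1.79 to 2.11 in activated against 2.23 to 2.85 in quiescent shFoxM1 cells, and 1.86 to 2.23 in activated against 2.41 to 4.66 in quiescent shControl cells. Every activated library thus had less Smc4 per Smc2 than any quiescent one of its hairpin. Ncapg over Ncapg2, the same position in both complexes, was the steadiest ratio, at 1.57 to 1.97 and 1.85 to 1.99 in activated and 1.83 to 2.14 and 1.75 to 2.29 in quiescent shFoxM1 and shControl cells. Ncapd2 over Ncapd3 ranged from 3.14 to 6.78, with both extremes in quiescent shFoxM1 cells. The kleisin ratio, Ncaph over Ncaph2, averaged 0.412 ± 0.11 in activated against 0.269 ± 0.0772 in quiescent shFoxM1 cells, and 0.304 ± 0.0143 against 0.232 ± 0.116 in shControl cells, with overlap in both cases.

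Top2a over Top2b, the paralog known for its place in resting and differentiated cells, was 4.53 to 5.48 in activated against 0.826 to 2.65 in quiescent shFoxM1 cells, and 4.21 to 6.27 in activated against 0.598 to 1.62 in quiescent shControl cells. Top2b itself averaged 21.7 ± 6.08 and 18 ± 0.877 FPKM in activated shFoxM1 and shControl cells, against 33.4 ± 14.6 and 33.7 ± 6.21 FPKM in the quiescent groups. Its differences of -0.51 and -0.85 did not pass (limma adjusted p = 0.216 and 0.0772).

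**Figure D4:**
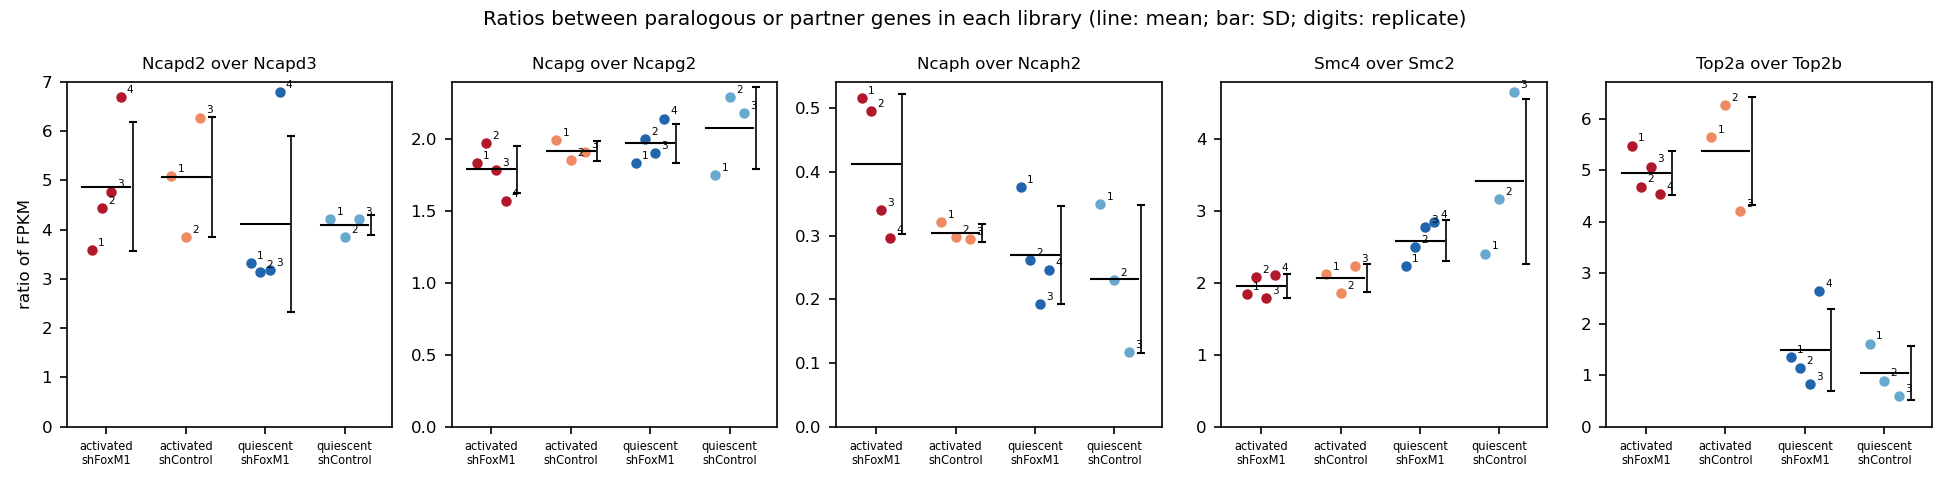
Ratio of the FPKM of named gene pairs in every library (points; line: group mean, bar: SD, digit: replicate number), with activated shFoxM1, activated shControl, quiescent shFoxM1 and quiescent shControl cells from left to right. Top2a over Top2b lies at 4.21 or above in all activated libraries and at 2.65 or below in all quiescent ones, and Ncapg over Ncapg2 stays between 1.57 and 2.29.

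Likeness of pattern was measured as the root mean square difference of centred log2 values over the 14 libraries, as a description of libraries that share their depth and base composition. Of the 45 pairs of members the closest were Ncapg and Ncapg2, at 0.094, followed by Ncapg and Top2a at 0.185. The farthest were Smc2 and Ncaph2, at 0.862. Ncaph2 took part in each of the 4 farthest pairs. Over all genes tested, Ncapg was closest to Atad2 (0.104), Cenpi (0.106) and Ttk (0.118), and Ncapg2 to Atad2 (0.0992), Cenpi (0.105) and Dtl (0.118). Smc2 was closest to Kif20b (0.165), Dek (0.17) and Cenpe (0.173), and Smc4 to Pola1 (0.145), Esco2 (0.159) and Sgo2a (0.169). Mki67 was closest to Cenpe (0.124), Esco2 (0.163) and Kif11 (0.171), and Top2a to Kif4 (0.144), Arhgap11a (0.144) and Prc1 (0.146). For Ncapd2 the closest were Mcm7 (0.109), Pmf1 and Hmgn2 (0.143 each), for Ncaph Melk (0.131), Spag5 (0.151) and Cdca2 (0.162), and for Ncapd3 Tpgs2 (0.103), Nup155 (0.121) and Slbp (0.125). For Ncaph2 they were Mrpl58 (0.0853), Rplp1 (0.097) and Rpl35 (0.107). The median gene stood at 0.525 to 0.959 from a member.

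The knockdown comparison asks whether the FoxM1 hairpin changed these genes. In activated cells, shFoxM1 against shControl called 0 of 10 members and 0% of all genes tested (limma). At an unadjusted p below 0.05 it held 0 members and 978 genes. The differences lay between -0.32 for Ncaph2 and 0.16 for Ncapd3, and each 95% interval included 0. The width of these intervals leaves room for sizeable changes in either direction, from -0.91 to 1.18 for Smc2, from -0.72 to 0.95 for Top2a and from -0.38 to 0.61 for Ncapd2.

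Ncaph2 was the member with the lowest value in that comparison. It averaged 64.2 ± 7.8 FPKM in activated shFoxM1 cells and 80.1 ± 3.53 FPKM in activated shControl cells, and all 4 shFoxM1 libraries lay below all 3 shControl libraries, as 2.73% of the genes tested did, with 6.68% higher without overlap. The difference was -0.32 ± 0.17, with a 95% interval from -0.69 to 0.04 (limma p = 0.0794, adjusted 0.646, exact permutation p = 0.0571, the smallest that this design allows). In quiescent cells it was -0.14 ± 0.17. Under the other settings it stayed below 0 in both states, and with array weights it was called in activated cells (limma adjusted p = 0.00661), where 8.37% of the genes tested were called lower, 31% higher and 39.4% in all. The estimation of these weights did not converge, and they ran from 0.147 to 53.7 with a median of 0.553.

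In quiescent cells the hairpin again called 0 of 10 members and 0% of all genes tested, with 0 members and 263 genes at an unadjusted p below 0.05. Top2a averaged 43.1 ± 15.5 FPKM with shFoxM1 and 37.1 ± 24.4 FPKM with shControl, a difference of 0.35 ± 0.39 with an interval from -0.49 to 1.18. The groups overlapped for every member, where 0.668% of the genes tested were higher and 2.45% lower without overlap. Quiescent shControl library 1 alone was at or above the highest shFoxM1 library for Smc4, Ncapg, Ncapg2, Ncaph, Top2a and Mki67. With the same weights, 6 members were called higher in quiescent shFoxM1 cells (Smc2, Smc4, Ncapd3, Ncapg2, Top2a and Mki67, limma adjusted p = 0.0128 to 0.0388), where 9.16% of the genes tested were called higher, 11.5% lower and 20.6% in all. Quiescent shControl library 2, the one with the weight of 53.7, is on the shControl side of this comparison.

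The response to activation itself was compared between the hairpins as a difference of differences. Again 0 of 10 members and 0% of all genes tested were called (limma), with 0 members and 433 genes at an unadjusted p below 0.05. Values ran from -0.26 ± 0.65 for Mki67 to 0.06 ± 0.58 for Smc4. The intervals were widest for Smc2, from -1.64 to 1.31, and narrowest for Ncaph2, from -0.70 to 0.33. The pass of Smc2 with shFoxM1 and not with shControl is therefore no sign that the responses differed, since its difference of responses was -0.16 ± 0.69 (adjusted p = 0.993).

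Muscle differentiation markers moved with the comparison in the opposite direction. All 10 tested genes of that list (Myog, Acta1, Ttn and others) fell on activation for both hairpins. Over all genes tested, 12.3% were called lower in shFoxM1 and 16.5% in shControl cells. Myh8 and Cdkn1c were too low to pass the filter and were not tested. Their 12-gene sum was 37.5, 19.6, 25.4 and 97.2 FPKM in activated shFoxM1 libraries 1 to 4, against 336, 455, 95.7 and 950 FPKM in the quiescent ones. It was 66.1, 59.3 and 75.7 FPKM in activated shControl cells, against 284, 1497 and 1854 FPKM in quiescent ones. Over the same libraries the 10 members summed to 485, 452, 319 and 282 FPKM against 247, 196, 131 and 173 FPKM with shFoxM1, and to 384, 441 and 303 FPKM against 263, 147 and 128 FPKM with shControl. Quiescent shControl library 1, with the highest member sum among quiescent libraries, had the lowest muscle sum of its group. Quiescent shFoxM1 library 3 went the other way, with the lowest muscle sum and also the lowest member sum of its group. The macrophage marker Cd68 rose on activation, by 1.28 in shFoxM1 and 2.03 in shControl cells (limma adjusted p = 0.0198 and 0.00423). The part of these markers in the changes of the members was not tested, and in bulk RNA fewer cells of a type and less RNA per cell cannot be told apart.

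**Figure D5:**
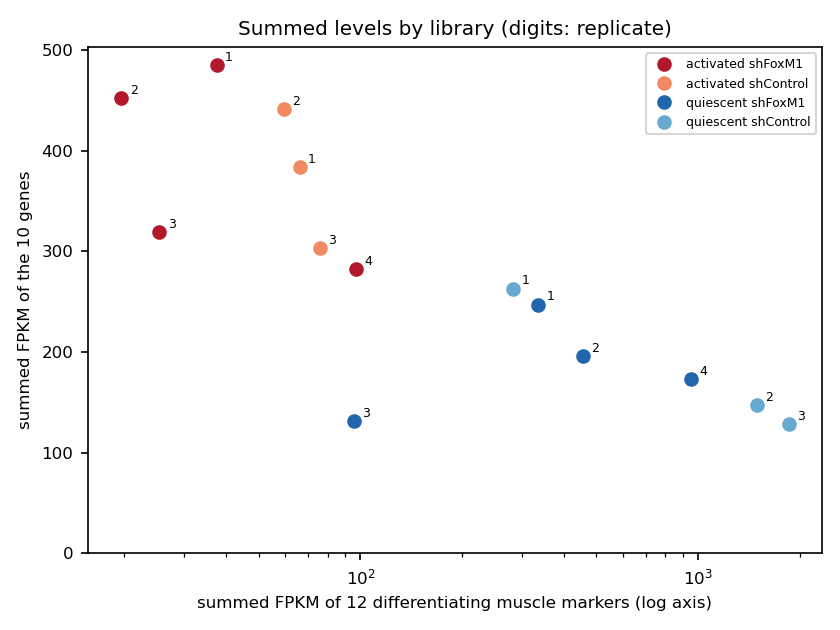
Summed FPKM of the 10 members (vertical axis) against the summed FPKM of the 12 muscle differentiation markers (horizontal axis, log scale), 1 point per library, labelled by replicate and coloured by group. Activated libraries hold 19.6 to 97.2 FPKM of the markers and 282 to 485 FPKM of the members, and quiescent libraries 95.7 to 1854 FPKM and 128 to 263 FPKM.

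Other complexes of the SMC family were set beside the condensins, and no difference between complexes was tested. Over all genes tested, 18.3% were called higher and 12.3% lower in shFoxM1 cells, and 11.7% and 16.5% in shControl cells. With lists this short, counts near those shares are not results about a complex. Of the 5 genes of the cohesin core, which holds sister chromatids together, 0 passed in either direction for either hairpin, with Rad21 at 0.36 and 0.45 and Smc3 at 0.26 and 0.02 in shFoxM1 and shControl cells. Their median difference was 0.26 and 0.02. Of 13 cohesin regulators, 4 rose and 1 fell for both hairpins. Those that rose were Espl1 (1.51 and 1.26), the separase that cuts cohesin, its inhibitor securin, Pttg1 (1.23 and 1.52), the cohesin protector Sgo1 (1.19 and 1.22) and sororin, Cdca5 (1.45 and 1.52), which stabilizes cohesin on DNA. The loader subunit Mau2 fell, by 0.40 in shFoxM1 and by 0.64 in shControl cells. In the SMC5/6 complex, which acts in DNA repair, 3 of 6 rose in shFoxM1 cells (Nsmce1 0.58, Nsmce4a 0.52, Nsmce2 0.44) and 2 of 6 in shControl cells (Nsmce1 0.79, Nsmce2 0.55), while the ATPases Smc5 (0.13 and -0.01) and Smc6 (0.36 and 0.38) did not pass. Among the other 5 topoisomerases 1 rose for both hairpins, Top1mt (0.95 and 0.56), the mitochondrial enzyme.

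Of the genes that work with condensin, Top2a and Ki-67 on mitotic chromosomes, 13 of 15 were higher and 0 lower in shFoxM1 cells. In shControl cells 10 of 15 were higher and 0 lower. These shares were larger than those of the related lists above. All of these lists were chosen with earlier results of these data known, and their shares were not compared by a test. Over all genes tested, 18.3% and 11.7% were called higher. The differences were highest for Birc5, Incenp and Cdca8 of the chromosomal passenger complex in shFoxM1 cells (1.57, 1.50 and 1.46). In shControl cells they were highest for Ccnb1, the cyclin that drives entry into mitosis (1.85), Birc5 (1.76) and Cdca8 (1.60). Median differences were 1.35 and 1.38, against 1.11 and 1.20 for the members. In the knockdown comparisons and in the difference of responses 0 genes of any of these lists were called. Single libraries decided the small counts. In shFoxM1 cells the SMC5/6 count was 1 without any of activated replicates 1 and 2 or quiescent replicates 1, 2 and 3, the cohesin core count was 1 and the topoisomerase count 2 without quiescent replicate 4, and the regulator count was 8 without activated replicate 4. In shControl cells the SMC5/6 count was 0 without activated replicate 2 or quiescent replicate 2 and 1 without quiescent replicate 3, the cohesin core count was 1 without quiescent replicate 1, and the regulator count was 3 without quiescent replicate 2. The call of Top1mt in shControl cells was lost without any of its 3 quiescent libraries, activated shFoxM1 replicates 1 or 2 or quiescent shFoxM1 replicates 1 or 2, and the topoisomerase count was 2 without quiescent shFoxM1 replicate 4.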

How the data were processed

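RNA from 14 libraries was used, and groups came from the sample titles. The deposited table holds the authors' FPKM values per gene with 2 decimals, and RSEM and GENCODE are named in its title. Per the submitters' processing notes, Bowtie 0.12.9, Cufflinks 2.1.1, HTSeq and the mm10 build were used. Which of these made the values is not given in the sources used here. Nor do they give an annotation release or the use of strand. Of 49585 identifiers 49326 matched GENCODE M21, which gave names, GRCm38 positions, lengths and GC content, and 25170 genes were at 0 in all libraries. Depth was estimated from the step of 1 read that low values show once multiplied by transcript length, and 93.1 to 94.7% of them lay within 0.25 of such a step. No counts per gene were used, so no counting interval is given.

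The scale was log2(FPKM + 1). A gene was tested if 3 or more libraries had 1 FPKM or more, which left 12432 genes and all 10 members. The test was limma 3.58.1 in R 4.3.3, with 1 model of 4 group means, empirical Bayes with a trend and Benjamini-Hochberg adjustment over all genes tested, at an adjusted p below 0.05. It was tested on simulated data beforehand. Exact two-sided permutation tests on mean log2 values (scipy 1.17.1) were run per member. The alternatives were other pseudocounts (0.1 and 5), filters, scalings, a GC and length trend removed with mgcv 1.9.3, a replicate block, array weights, stricter thresholds and leaving out each library. The members, the related lists and the markers were chosen with earlier results of these data known. The text names all members, up to 3 called genes of each related list and comparison, the core subunits of those lists, the 3 genes closest in pattern to each member and Foxm1. Names of further genes (Top2b, Cd68, Sgo1, Mau2, the examples of muscle markers) were taken after their values were seen. Promoter sequences are from RefSeq, in build GRCm38.p6. Protein sequences were not used here.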

Additional observations from a re-analysis of the deposited data

How the results depend on the processing

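Differences of the 10 members on activation kept their sign in all 280 values under other settings and all 280 values with a library left out, while calls were lost in 18 and 34 of these and gained in 25 and 9. The number of members called in shFoxM1 and shControl cells (8 and 7) was 5 and 4 without a filter, 4 and 3 with equal protein-coding sums, and 2 and 2 at an adjusted p below 0.01. The cause was not tested. It was 10 and 10 after correction for GC content and length and likewise with array weights, and 6 and 5 when at least 2-fold was required. With a library left out it ranged from 2 to 10 in shFoxM1 and from 2 to 9 in shControl cells. For activation, the share of all genes called was worked out for the main fit only. Counts under the other settings therefore cannot be read as stronger or weaker results about the members. In the knockdown, array weights called 39.4% of all genes tested in activated and 20.6% in quiescent cells. For the knockdown, array weights gave 1 member in activated and 6 in quiescent cells, against 0 in every other setting, and their estimation did not converge. With shFoxM1 replicates 1 to 3 alone, the number that the design text gives, the counts were 8 and 9 on activation and 0 for the knockdown. The labels give a replicate number and do not say whether libraries were paired by it, and the main fit treats them as unpaired. On activation, correlations of same-numbered libraries were 0.0888 to 0.381 in shFoxM1 and -0.205 to 0.132 in shControl cells. A library correlated best with its own number in 7 of 8 cases in shFoxM1 and 1 of 6 in shControl cells. For the knockdown the correlations were -0.191 to 0.208 in activated and 0.00118 to 0.294 in quiescent cells, with 1 of 6 and 2 of 6 such cases. Whether the shFoxM1 libraries were paired is thus not known. With the replicate block the counts on activation were 10 and 10, and 0 in the other comparisons. Smc4 (limma adjusted p = 0.00291 and 0.0101) and Mki67 (0.00469 and 0.0034) were included.

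No knockdown value or difference of responses that changed its sign was called in the fit described above. For the knockdown in activated cells, the changed values were -0.019 for Ncapg with the GC trend removed, 0.14 for Mki67 with array weights, 0.072 for Mki67 with equal sums, 0.20 for Mki67 with the replicate block, -0.019 for Ncapd2 with the block and the GC trend removed, and 0.24 for Mki67 with shFoxM1 replicates 1 to 3. Median-of-ratios scaling gave -0.076 for Smc4, -0.022 for Ncapd2, -0.094 for Ncapg, -0.063 for Ncaph and -0.024 for Top2a, and quantile normalization gave -0.0064 for Smc4, -0.082 for Ncapg, -0.044 for Ncaph and -0.0031 for Ncapg2. In quiescent cells they were -0.041 for Smc4 with the GC trend removed, -0.028 for Ncapd2 with the block and -0.079 for Ncapd2 with shFoxM1 replicates 1 to 3. For the difference of responses, Ncapd2 had -0.078 and Ncapd3 -0.055 with the GC trend removed, with or without the block, -0.030 and -0.016 with array weights, -0.12 and -0.11 with median-of-ratios scaling, and -0.071 and -0.15 with quantile normalization. Smc4 had -0.26 with array weights, -0.10 with median-of-ratios scaling and -0.053 with quantile normalization. Ncapg2 had 0.026 with equal sums and 0.036 with pseudocount 5, and with shFoxM1 replicates 1 to 3 Ncapg, Ncaph and Ncapg2 had 0.071, 0.11 and 0.054. The knockdown in activated cells, with a library left out, ranged from -0.30 to 0.24 for Mki67, from -0.16 to 0.30 for Ncapg, from -0.059 to 0.38 for Ncapg2, from -0.048 to 0.22 for Ncaph, from -0.20 to 0.47 for Smc2, from -0.24 to 0.33 for Smc4 and from -0.064 to 0.31 for Top2a. In quiescent cells it ranged from -0.22 to 0.79 for Mki67, from -0.12 to 0.32 for Ncapd2, from -0.052 to 0.32 for Ncapd3, from -0.23 to 0.55 for Ncapg, from -0.19 to 0.61 for Ncapg2, from -0.11 to 0.44 for Ncaph, from -0.12 to 0.83 for Smc2, from -0.23 to 0.37 for Smc4 and from -0.12 to 0.84 for Top2a. The difference of responses ranged from -0.83 to 0.17 for Mki67, from -0.21 to 0.23 for Ncapd2, from -0.15 to 0.21 for Ncapd3, from -0.51 to 0.26 for Ncapg, from -0.48 to 0.32 for Ncapg2, from -0.37 to 0.18 for Ncaph, from -0.70 to 0.25 for Smc2, from -0.31 to 0.33 for Smc4 and from -0.72 to 0.23 for Top2a.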
